A study of Homo sapiens with 6 samples.

Results

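Cohesin, condensin and topoisomerase genes were followed in 786-O, a long-established cell line from a human clear cell renal carcinoma. The set holds 33 genes chosen by symbol: 13 of cohesin and its regulators, 8 of condensin, 6 of the SMC5/6 complex with the related gene SMCHD1, 5 topoisomerase genes and CTCF. All 33 were among the 54261 symbols of the table, and all 33 passed the filter on low counts. The 3 control libraries came from cells with control guide RNA, described as PHF8 wildtype, and the 3 knockout libraries from cells with PHF8 guide RNA, described as PHF8 knockout. CRISPR-Cas9 was used with guide RNA in both groups. PHF8 is a histone demethylase. The labels do not state if knockout cells were clonal or pooled, or if each library is a culture of its own. The p-values then rest on library-to-library spread that may be purely technical. The question put to the data is how loss of PHF8 goes with transcript levels.

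Cohesin, condensin and SMC5/6 are ring-shaped complexes built on a pair of SMC ATPases. Cohesin holds sister chromatids together and folds interphase chromosomes into loops, condensin compacts chromosomes for mitosis, and SMC5/6 acts in DNA repair and on replication intermediates. Topoisomerases cut and reseal DNA to release supercoils and untangle strands. Several of these genes are transcribed mainly in S, G2 and M phases in dividing cells, whereas others are expressed throughout the cycle.

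Libraries held 21533615 to 29095133 counted reads. PHF8 itself stood at 36.6, 35.1 and 32.9 CPM (read counts scaled by library size) in control libraries 1 to 3 and at 10.8, 6.74 and 12.8 CPM in knockout libraries 1 to 3. Of 10 markers set for the renal line, 8 exceeded 1 CPM on average, CA9 and NDUFA4L2 being the others. The erythroid markers had no reads, and the summed leukocyte markers stayed at or below 0.635 CPM in every library. Of the 4 fibroblast markers COL6A3 was the only one above 1 CPM, and of the 4 endothelial markers KDR was. COL6A3, a collagen VI chain gene, made up nearly all of the fibroblast sum, which was 1578 to 1647 CPM in control and 1452 to 3179 CPM in knockout libraries. The endothelial sum was 1.4 to 1.49 CPM in control and 1.5 to 3.03 CPM in knockout libraries, with no reads of CDH5. The part of these markers in the members' levels was not tested. Control library 1 stood apart from the other controls. Its counts differed from theirs by a chi-square per degree of freedom of 12.6 and 14.8, against 3.06 between control libraries 2 and 3, and knockout library 2 differed from knockout libraries 1 and 3 by 73.4 and 57.3. Over the 13300 of 14398 tested genes with a matched transcript, fold changes followed the length and the GC content of the transcript, so results are also given with an offset that removes smooth trends in both from every library. Because it was fitted around the mean of all libraries, the offset takes out group differences along these measures too.

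The upstream bases of 5 members that the results turn on are shown first, because members that fell together can be compared there: 4 that fell (TOP2A, NCAPG, NCAPH and WAPL) and 1 that rose (NSMCE1). They were picked among members whose RefSeq start coincides with the 5′ end of the gene in GENCODE. Each is the 200 bases before the RefSeq start (GRCh38.p14), 5′ to 3′ on the gene's strand, and capitals mark letters of a motif searched on either strand.
TOP2A, chr17:40417897-40418096, minus strand: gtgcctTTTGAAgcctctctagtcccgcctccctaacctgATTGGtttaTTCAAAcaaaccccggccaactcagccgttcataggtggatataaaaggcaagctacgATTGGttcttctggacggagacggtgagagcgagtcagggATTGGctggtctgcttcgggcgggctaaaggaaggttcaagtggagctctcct
NCAPG, chr4:17810779-17810978, plus strand: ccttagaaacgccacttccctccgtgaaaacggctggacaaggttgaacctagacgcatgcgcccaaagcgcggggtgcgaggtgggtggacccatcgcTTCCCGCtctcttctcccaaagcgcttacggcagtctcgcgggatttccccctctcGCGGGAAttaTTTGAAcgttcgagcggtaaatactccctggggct
NCAPH, chr2:96335566-96335765, plus strand: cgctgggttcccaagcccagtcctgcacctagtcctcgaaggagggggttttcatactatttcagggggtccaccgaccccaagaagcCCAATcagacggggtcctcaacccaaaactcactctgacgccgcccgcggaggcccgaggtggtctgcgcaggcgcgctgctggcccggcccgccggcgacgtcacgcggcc
WAPL, chr10:86521793-86521992, minus strand: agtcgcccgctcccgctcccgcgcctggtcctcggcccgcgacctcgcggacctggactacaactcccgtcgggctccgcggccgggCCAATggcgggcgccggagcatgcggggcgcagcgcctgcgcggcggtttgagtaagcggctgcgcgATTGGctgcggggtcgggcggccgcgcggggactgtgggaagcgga
NSMCE1, chr16:27268773-27268972, minus strand: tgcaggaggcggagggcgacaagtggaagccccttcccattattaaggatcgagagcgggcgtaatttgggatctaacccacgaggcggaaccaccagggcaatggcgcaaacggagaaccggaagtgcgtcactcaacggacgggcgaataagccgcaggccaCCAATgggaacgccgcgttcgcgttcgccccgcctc

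The motifs were TTTGAA and TTTAAA (forms of the cell-cycle homology region of G2/M promoters), CCAAT (the CCAAT box), TTCCCGC and TTGGCGC (forms of an E2F site) and the NRF1 motif. They were searched over 250 bases before to 50 after the start, in the 28 of 33 members that the RefSeq table holds. TTTGAA occurred in 8 of the 21 matched members that fell in 0 of the 4 that rose and in 1 of the 3 that did not pass, against 15.4% of 27305 promoters. The holders that fell were NCAPD2, NCAPG, NCAPG2, PDS5B, SMC2, SMC3, SMC4 and TOP2A. TTTAAA occurred in NCAPH and TOP1, 2 of 21 that fell, 0 of 4 that rose and 0 of 3 that did not pass, against 12.3%. CCAAT was found in 8 of 21 that fell, 1 of 4 that rose and 1 of 3 that did not pass, against 35.7% of all promoters. TOP2A held 4 CCAAT boxes, first bases at -244, -160, -93 and -53, and NCAPD2 held 4 as well. TTCCCGC lay in 3 of 21 members that fell, 1 of 4 that rose and 1 of 3 that did not pass (6.56% of promoters), and TTGGCGC in 3 of 21, 1 of 4 and 1 of 3 (3.12%). NCAPG carried TTCCCGC letters at -101 and -45 and TTTGAA at -35. The NRF1 motif lay in SMC4 alone, against 1.36% of promoters. A match describes letters in this window and no more.

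In knockout cells 23 of the 33 members were lower, 5 were higher and 5 missed the threshold (edgeR quasi-likelihood test, adjusted p under 0.05). Over all tested genes 30.8% were lower and 28.9% higher by the same rule. The members' median log2 fold change was -1.15, beside -0.01 over all tested genes. Past 2-fold, the criterion of the series, were 18 members lower and 0 higher, where 14.2% of all tested genes were lower and 9.2% higher. Control and knockout values did not overlap in 28 members, against 66.8% of all tested genes. From bulk RNA, fewer cells in a phase or type and less RNA per cell cannot be told apart.

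**Figure D1:**
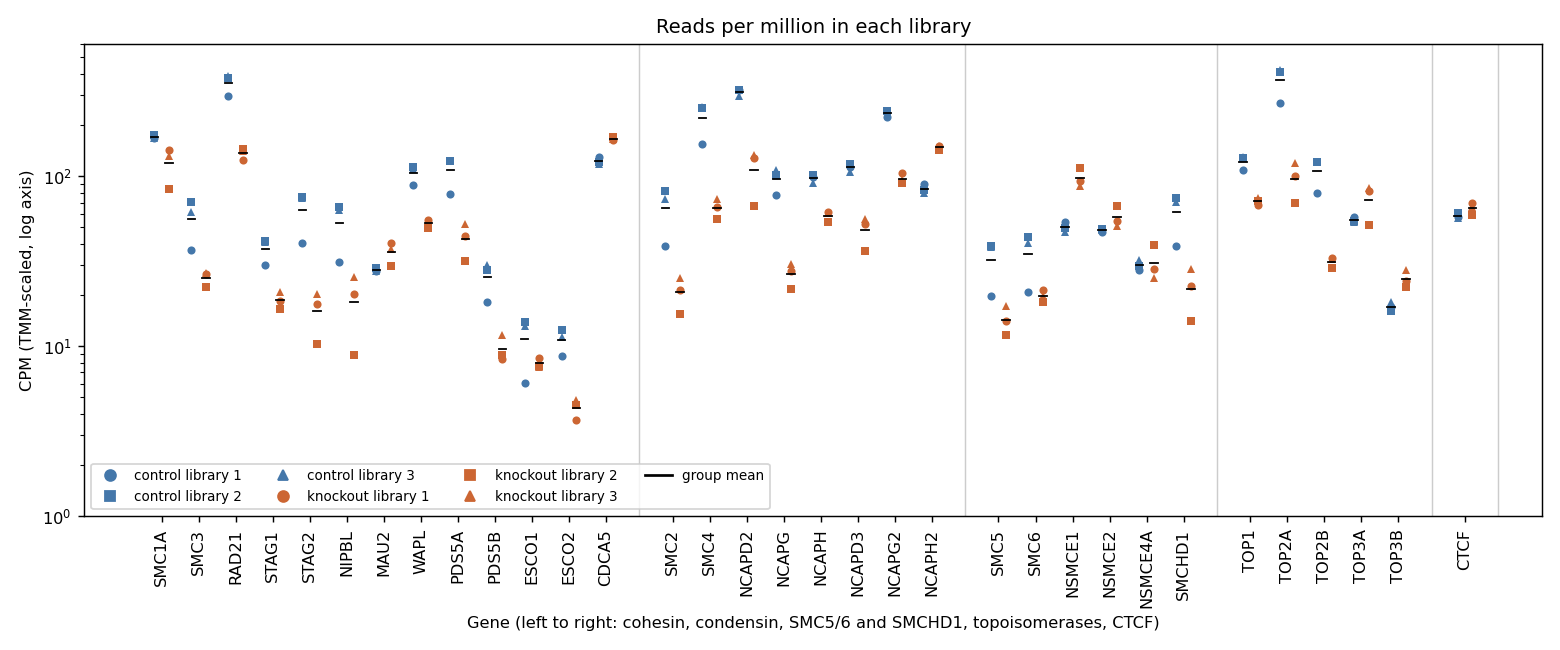
CPM on a log axis in each of the 6 libraries for the 33 members, with colours for the groups, shapes for library numbers and black lines for group means. Most cohesin, condensin and type II topoisomerase genes lie lower in all 3 knockout libraries, with control library 1 below the other controls for many of them.

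The members that fell were longer and poorer in GC than those that rose. The 23 that fell had transcripts of 3660 to 10425 bases with 36.4% to 51.6% GC, and the 5 that rose had 1042 to 4845 bases with 52.4% to 61.3% GC. Across the 33 genes, which are not independent replicates and share the same libraries, Pearson's r of log2 fold change with GC content was 0.78 and Spearman's rho 0.65. With transcript length r was -0.54 and rho -0.47. With the 13300 tested genes that have a matched transcript in 10 bins of GC content, the median log2 fold change was -0.76 in the poorest bin (28.6% to 38.4%) and 0.41 in the bin from 58.0% to 61.6%. With the length and GC offset 15 members fell, 5 rose and 13 did not pass, with a median of -0.27, beside 28.5% lower, 31.6% higher and a median of 0.02 over 13300 genes. Of the 23 members that fell, 14 fell with the offset too.

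**Figure D2:**
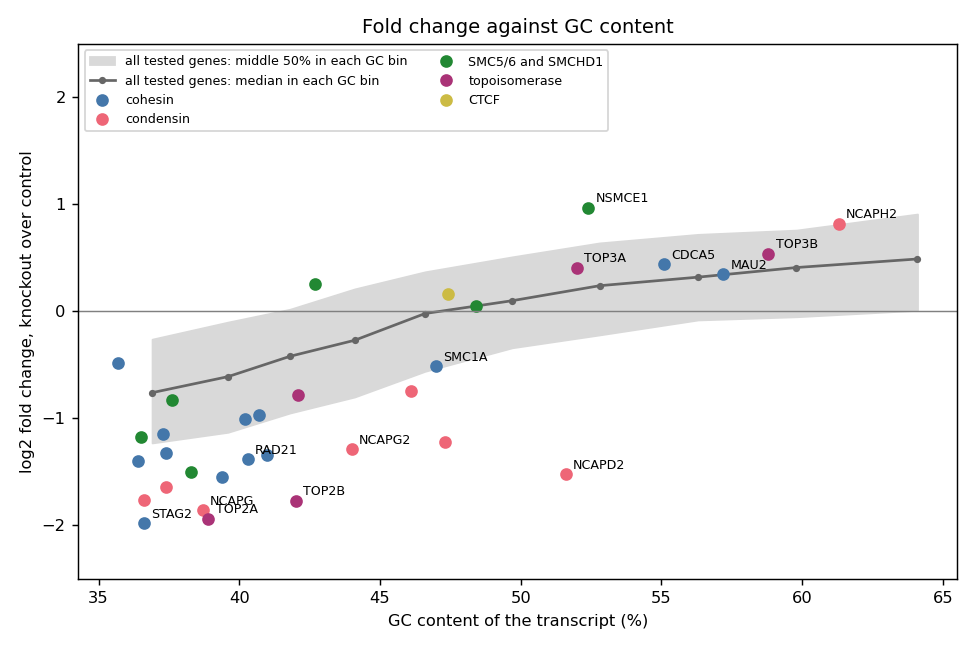
log2 fold change of the 33 members against the GC content of their transcripts, over the median (line) and middle 50% (band) of the tested genes with a matched transcript in 10 bins of GC content. Set against the middle 50% of their own bin, 16 members are below (TOP2A, TOP2B and NCAPD2 among them), 14 within and 3 above (NSMCE1, NSMCE2 and NCAPH2).

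Control library 1 was low in many of the members that fell. Its level was the lowest of the controls in 20 of these 23, against 39.8% of all tested genes, at a median of 66.4% of the mean of control libraries 2 and 3 (range 48.5% to 105%). In the 5 that rose it was the lowest in 0, with a median of 107%, and over all tested genes the median was 100%. By bin of GC content the median over tested genes was 74.9% in the poorest bin and 108% in the richest. Without control library 1 the same number of members, 23, were lower, but SMC1A lost its call and ESCO1 gained one. Knockout library 2 was the lowest knockout library in 19 of the 23.

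All 5 genes of the cohesin ring fell, beside 30.8% lower over all tested genes. With the offset 2 of the 5 fell, RAD21 and STAG2 (median log2 fold change -0.24), beside 28.5% of all genes with a matched transcript. RAD21, the kleisin that closes the ring and is cut at anaphase, was the most abundant per length of the 5 in both groups, at 96.7 ± 13.7 RPKM (CPM per kilobase of transcript; SD, n = 3) in control and 37.3 ± 2.93 in knockout cells. It stood at 297, 376 and 389 CPM in the controls and at 124, 144 and 141 CPM in the knockout libraries. Every knockout library was thus below the lowest control, and the log2 fold change was -1.38 (SE 0.12; adjusted p = 3.78e-05). With the offset RAD21 fell by 0.86 on the log2 scale.

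STAG2 and STAG1 encode alternative subunits that bind the ring, each cohesin complex carrying either of them. STAG2 (chromosome X, 123960212 to 124422664, GRCh38) had 40.4, 75.8 and 74.7 CPM in control and 17.6, 10.3 and 20.3 CPM in knockout libraries. It kept 25.3% of the control level, the lowest share among cohesin members (log2 fold change -1.98, SE 0.29; adjusted p = 4.13e-04), and fell with the offset as well (-0.96, adjusted p = 0.0024). STAG1 had 30.0, 41.4 and 41.2 CPM in control and 18.5, 16.5 and 20.8 CPM in knockout libraries. Its groups did not overlap and it fell 2.02-fold, but with the offset its log2 fold change of -0.15 did not pass (adjusted p = 0.18). Reads on STAG1 are uncertain where 21.2% of its exon bases overlap PCCB on the other strand.

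The ratio of STAG2 to STAG1 reads per kilobase does not depend on library scaling. On the log2 scale it was 0.40, 0.85 and 0.83 in the controls and -0.10, -0.71 and -0.06 in the knockout libraries. By this measure STAG2 was above STAG1 in all 3 controls. It was below STAG1 in knockout library 2 and nearly level with it in knockout libraries 1 and 3. The sign of the ratio depends on the transcript lengths used. The difference was -0.98, with an exact two-sided permutation p of 0.10, the smallest that 3 against 3 libraries allow (0.22 adjusted over 11 pairs).

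The ATPase genes SMC1A and SMC3 form the arms of the ring. SMC3 had 37.0, 70.3 and 61.2 CPM in control and 26.6, 22.3 and 26.9 CPM in knockout libraries (log2 fold change -1.15, SE 0.21), but -0.24 with the offset, which did not pass (adjusted p = 0.14). SMC1A (chromosome X, 53374149 to 53422728) had 167, 175 and 168 CPM in control and 143, 84.3 and 131 CPM in knockout libraries. Knockout library 2 was far below the others for SMC1A, and the fall of 0.51 on the log2 scale (adjusted p = 0.029) was lost without any of the 3 control libraries (adjusted p = 0.070 to 0.078). With the offset SMC1A lay at 0.18 (adjusted p = 0.088).

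The loader genes NIPBL and MAU2 moved in opposite directions, whereas the release genes WAPL, PDS5A and PDS5B all fell. NIPBL, which with MAU2 loads cohesin onto DNA and drives loop extrusion, had 31.2, 65.7 and 63.2 CPM in control and 20.4, 8.88 and 25.4 CPM in knockout libraries. It fell 2.92-fold (adjusted p = 0.0063), while its log2 fold change was -0.41 with the offset (adjusted p = 0.20). MAU2 had 27.8, 28.7 and 27.7 CPM in control and 40.2, 29.5 and 37.4 CPM in knockout libraries. Knockout library 2 lay only just above the controls, and the 1.27-fold rise of MAU2 (adjusted p = 0.045) was lost without knockout library 1 (adjusted p = 0.16) or 3 (0.12), without any control library (0.076 to 0.11), with library totals only (0.26), with no filter (0.066), with the replicate block (0.068) and with limma-voom (0.054). It passed with the offset (0.38, adjusted p = 0.0017).

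WAPL opens the ring to release cohesin, and PDS5A and PDS5B are adaptors for both release and acetylation. WAPL had 88.5, 113 and 109.9 CPM in control and 55.5, 49.3 and 54.3 CPM in knockout libraries. PDS5A fell 2.53-fold and PDS5B 2.63-fold, and the log2 ratio of PDS5B to PDS5A was -2.16 ± 0.05 in control and -2.2 ± 0.27 in knockout libraries (SD, n = 3 each). That ratio differed by -0.04, less than the spread between the knockout libraries (exact permutation p = 0.70). With the offset PDS5A still fell (-0.41, adjusted p = 0.025), while WAPL (-0.10, adjusted p = 0.22) and PDS5B (-0.27, adjusted p = 0.060) did not pass.

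Cohesion in S phase is set by the acetyltransferases ESCO1 and ESCO2 and kept by sororin, the product of CDCA5, which counteracts WAPL. ESCO2, which is active in S phase, had 8.78, 12.5 and 11.3 CPM in control and 3.67, 4.52 and 4.85 CPM in knockout libraries (log2 fold change -1.32, SE 0.18; -0.69 with the offset, adjusted p = 0.0014). ESCO1 had 6.10, 13.8 and 13.1 CPM in control and 8.50, 7.67 and 7.57 CPM in knockout libraries. Control library 1 lay below all knockout libraries, so the ESCO1 groups overlapped and the difference did not pass (adjusted p = 0.15). It passed as lower without that library (-0.74, adjusted p = 0.0031), and with the offset the log2 fold change was 0.35 (adjusted p = 0.12). The log2 ratio of ESCO2 to ESCO1 reads per kilobase was 0.78, 0.11 and 0.05 in control and -0.96, -0.50 and -0.38 in knockout libraries, groups that do not overlap (exact permutation p = 0.10).

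CDCA5 rose. It had 129, 122 and 118 CPM in control and 164, 169 and 166 CPM in knockout libraries, with little spread within either group (log2 fold change 0.44, SE 0.09; adjusted p = 0.0020). Its transcript is 2475 bases long with 55.1% GC, and with the offset the log2 fold change was 0.06 (adjusted p = 0.49). In all, 10 of 13 cohesin genes fell, 2 rose (CDCA5 and MAU2) and ESCO1 did not pass. Over all tested genes 30.8% were lower and 28.9% higher. With the offset 4 of 13 cohesin genes fell (RAD21, STAG2, PDS5A and ESCO2) and MAU2 rose. That count lower was near the 28.5% of all genes that were lower with the offset, where 31.6% were higher.

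**Figure D3:**
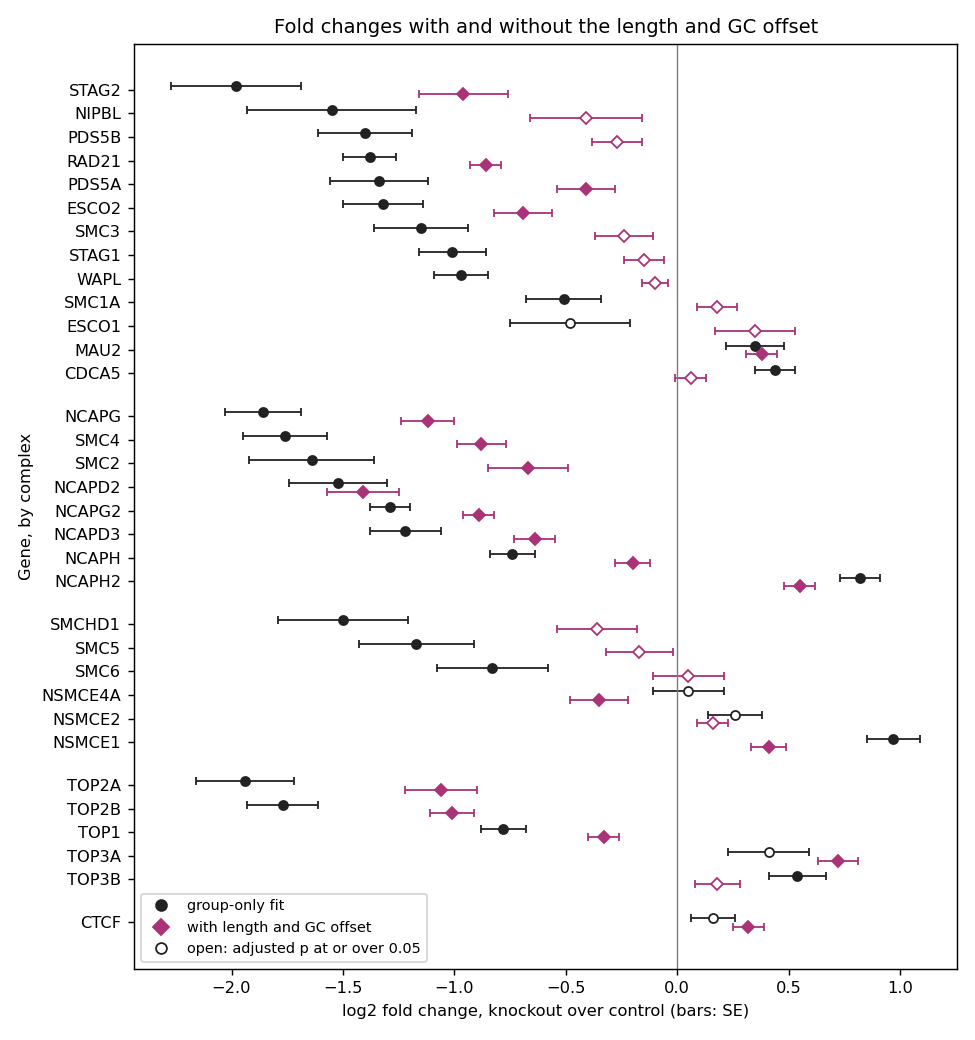
log2 fold change of each member, knockout over control, with SE bars, from the fit with group as the only term (black circles) and with the length and GC offset (purple diamonds); open symbols did not pass. Condensin and type II topoisomerase genes keep their direction and call with the offset, whereas SMC1A, SMC3, STAG1, WAPL, NIPBL, PDS5B, SMC5, SMC6 and SMCHD1, which fell, and CDCA5 and TOP3B, which rose, do not pass with it.

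In condensin 7 of 8 genes fell and NCAPH2 rose, beside 30.8% lower and 28.9% higher over all tested genes. All 8 kept call and direction with the offset (median log2 fold change -1.41, and -0.77 with the offset), where 28.5% of all genes were lower. Condensin I and II share the ATPases SMC2 and SMC4 and differ in their other subunits. SMC4 had 155, 252 and 254 CPM in control and 65.9, 56.0 and 73.3 CPM in knockout libraries, below every control (log2 fold change -1.76, SE 0.19; adjusted p = 8.77e-05; -0.88 with the offset). SMC2, its partner, had 38.7, 82.3 and 73.3 CPM in control and 21.5, 15.5 and 25.3 CPM in knockout libraries and fell 3.11-fold. For both ATPases control library 1 was the lowest control, at 61.4% (SMC4) and 49.7% (SMC2) of the other controls. The SMC2 to SMC4 ratio differed by 0.14 on the log2 scale between groups, less than the spread between control libraries (SD 0.20; exact permutation p = 0.40). Reads on SMC4 are uncertain where 19.0% of its exon bases overlap TRIM59 on the other strand.

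Condensin I reaches chromosomes after the nuclear envelope breaks down, and its own subunits NCAPD2, NCAPG and NCAPH all fell. NCAPD2, a HEAT-repeat subunit (chromosome 12, 6493356 to 6531955), had 323, 321 and 297 CPM in control and 128, 67.0 and 133 CPM in knockout libraries. The controls agreed closely for NCAPD2, knockout library 2 was lowest, and the log2 fold change of -1.52 (SE 0.22; adjusted p = 4.01e-04) was -1.41 with the offset, the largest fall among members with it. Its transcript has 51.6% GC, in a bin of GC content where the middle 50% of all tested genes ran from -0.22 to 0.64. NCAPG (chromosome 4, 17810979 to 17844865), the other HEAT-repeat subunit, had 77.7, 102 and 109 CPM in control and 27.7, 21.6 and 30.4 CPM in knockout libraries. Its log2 fold change was -1.86 (SE 0.17; adjusted p = 3.85e-05), and -1.12 with the offset, and 33.7% of its exon bases overlap LCORL on the other strand. NCAPH, the kleisin, had 99.5, 102 and 91.4 CPM in control and 61.3, 53.8 and 60.8 CPM in knockout libraries. This was the smallest fall in condensin, 1.67-fold, and with the offset the log2 fold change was -0.20 (adjusted p = 0.045).

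Condensin II is nuclear throughout the cycle and starts compaction in prophase. NCAPG2 had 222, 243 and 241 CPM in control and 104, 90.9 and 94.8 CPM in knockout libraries (log2 fold change -1.29, SE 0.09; adjusted p = 1.68e-05; -0.89 with the offset). NCAPD3 had 114, 118 and 106 CPM in control and 52.5, 36.2 and 55.9 CPM in knockout libraries and fell 2.33-fold (-0.64 with the offset). NCAPH2, the kleisin of condensin II (chromosome 22, 50508224 to 50524780), went the other way, from 89.7, 82.7 and 79.2 CPM in control to 151, 142 and 150.0 CPM in knockout libraries. All 3 knockout libraries exceeded every control (log2 fold change 0.82, SE 0.09; adjusted p = 1.00e-04; 0.55 with the offset). At 61.3% its GC content was the highest of the set, and 19.2% of its exon bases overlap SCO2 on the other strand.

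The kleisin pair therefore parted. The log2 ratio of NCAPH to NCAPH2 reads per kilobase was -0.70, -0.55 and -0.65 in control and -2.15, -2.26 and -2.16 in knockout libraries, a difference of -1.56 with little spread in either group (exact permutation p = 0.10, 0.22 adjusted over 11 pairs). NCAPG over NCAPG2 differed by -0.57 and NCAPD2 over NCAPD3 by -0.34, and neither pair's groups overlapped. All 3 ratios set a condensin I subunit over its condensin II counterpart and all 3 were lower in knockout libraries. From the fold changes with the offset, the same 3 differences were -0.75, -0.24 and -0.77. Of the 11 pairs, groups did not overlap in 5, and the other 6 include SMC1A over SMC3 (0.56), SMC5 over SMC6 (-0.37) and TOP3A over TOP3B (-0.17), with exact permutation p of 0.20, 0.20 and 0.70. No share was computed over other gene pairs, so the count of 5 has no background. Of single tested genes, 66.8% did not overlap between groups.

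**Figure D4:**
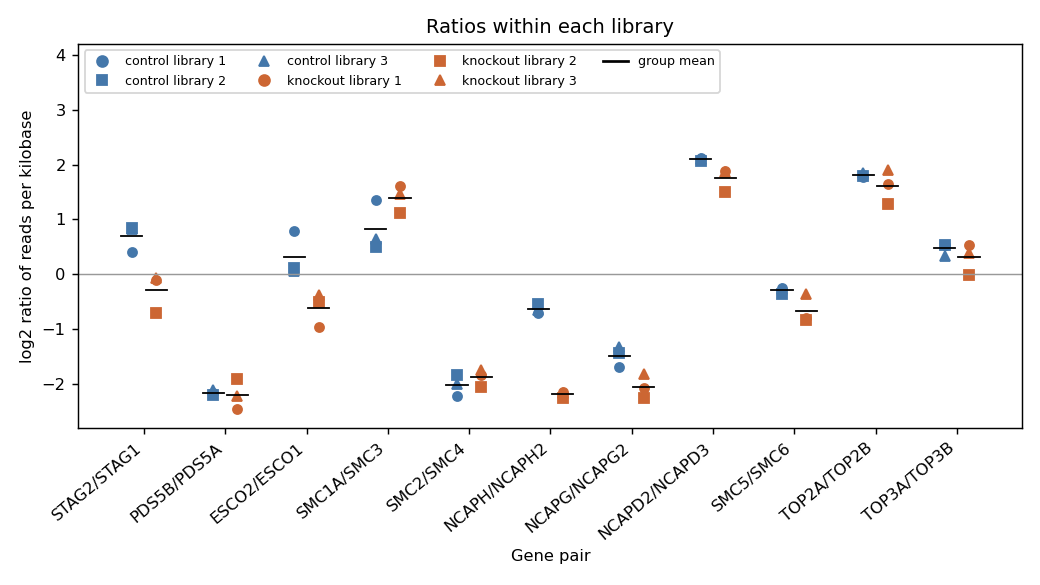
log2 ratio of reads per kilobase for 11 gene pairs in each library, with colours for the groups, shapes for library numbers and black lines for group means. The groups do not overlap for STAG2/STAG1, ESCO2/ESCO1 and the 3 condensin pairs, and NCAPH/NCAPH2 shows the largest gap.

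In the SMC5/6 complex the ATPase genes SMC5 and SMC6 fell, and of 3 NSE subunit genes NSMCE1 rose and the others did not pass. SMC5 had 19.7, 38.6 and 38.3 CPM in control and 14.0, 11.7 and 17.3 CPM in knockout libraries, a 2.25-fold fall (adjusted p = 0.0035). SMC6 had 20.7, 43.9 and 40.6 CPM in control and 21.5, 18.3 and 19.6 CPM in knockout libraries. Control library 1 lay within the knockout range for SMC6, and the call (log2 fold change -0.83, adjusted p = 0.016) was lost without control library 2 or 3 (adjusted p = 0.066 for each). With the offset SMC5 lay at -0.17 (adjusted p = 0.37) and SMC6 at 0.05 (adjusted p = 0.79). Their transcripts are long and poor in GC, with 5949 bases and 36.5% GC in SMC5 and 5240 bases and 37.6% GC in SMC6.

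NSMCE1, a RING-domain subunit of SMC5/6 (chromosome 16, 27224994 to 27268772), had 53.8, 49.3 and 46.7 CPM in control and 94.2, 112 and 88.0 CPM in knockout libraries. It rose 1.96-fold, the largest rise of the set (log2 fold change 0.97, SE 0.12; adjusted p = 1.44e-04), and rose with the offset (0.41, adjusted p = 0.0020). NSMCE2, a SUMO ligase, had 47.1, 48.7 and 48.0 CPM in control and 54.6, 66.6 and 50.8 CPM in knockout libraries, which did not overlap but did not pass (adjusted p = 0.089). NSMCE4A, the kleisin of the complex, had 28.2, 29.5 and 32.2 CPM in control and 28.5, 39.2 and 25.2 CPM in knockout libraries, with overlapping groups (adjusted p = 0.82). Its log2 fold change of 0.05 became -0.35 with the offset (adjusted p = 0.045), -0.12 with library totals only and -0.16 without knockout library 2. SMCHD1, a noncanonical SMC protein of the inactive X chromosome, fell 2.82-fold, from 38.7, 74.4 and 70.8 CPM to 22.6, 14.0 and 28.6 CPM, and lay at -0.36 with the offset (adjusted p = 0.11).

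Among the 6 canonical SMC genes all fell, with a median log2 fold change of -1.16, beside 30.8% lower over all tested genes. With the offset SMC2 and SMC4 of condensin fell, and the 4 of cohesin and SMC5/6 did not pass. The median of the 6 was then -0.2, and 28.5% of all genes with a matched transcript were lower. Per length SMC4 was the most abundant of the 6 in control cells at 43.1 RPKM (30.4 to 49.6), ahead of SMC1A at 17.5 ± 0.457. SMC2 (10.9 ± 3.89) and SMC3 (10.2 ± 3.11) did not differ beyond their spread. SMC6 (6.69 ± 2.40) exceeded SMC5 (5.42 ± 1.82) in every control library. The log2 ratio of SMC5 to SMC6 reads per kilobase was -0.25, -0.37 and -0.27 in control libraries 1 to 3. In knockout cells SMC4 at 12.7 ± 1.70 and SMC1A at 12.3 ± 3.20 RPKM no longer differed beyond their spread (SD, n = 3 each).

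Both genes of type II topoisomerases, the enzymes that pass a DNA double strand through another, fell. TOP2A, which decatenates chromosomes in mitosis and peaks in G2 and M (chromosome 17, 40388525 to 40417896), had 269.8, 411 and 422 CPM in control and 100.1, 69.2 and 119 CPM in knockout libraries. Its highest knockout library was below the lowest control, and it kept 26.1% of the control level (log2 fold change -1.94, SE 0.22; adjusted p = 1.15e-04; -1.06 with the offset). TOP2B, the isoform of non-dividing cells as well, had 80.1, 121 and 121 CPM in control and 32.9, 28.8 and 32.4 CPM in knockout libraries. It kept 29.3% of the control level (log2 fold change -1.77, SE 0.16; adjusted p = 4.37e-05; -1.01 with the offset). The TOP2A to TOP2B ratio was 1.81 ± 0.03 on the log2 scale in control and 1.61 ± 0.31 in knockout libraries (SD, n = 3 each), overlapping groups with an exact permutation p of 0.40.

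TOP1, the type IB enzyme that relaxes supercoils ahead of polymerases, fell 1.72-fold, from 109, 128 and 129 CPM to 67.3, 71.6 and 74.3 CPM, and by 0.33 with the offset (adjusted p = 0.0020). The type IA genes did not fall. TOP3B had 17.0, 16.0 and 18.2 CPM in control and 24.2, 22.2 and 28.0 CPM in knockout libraries and rose 1.45-fold (adjusted p = 0.0054), but lay at 0.18 with the offset (adjusted p = 0.14). Its reads are uncertain, because 90.8% of its exon bases overlap PPM1F-AS1 on the other strand. TOP3A, which with BLM and RMI1 dissolves double Holliday junctions, had 57.4, 54.2 and 53.5 CPM in control and 82.0, 51.3 and 85.3 CPM in knockout libraries. Knockout library 2 lay below the controls and the others above, so TOP3A did not pass (log2 fold change 0.41, adjusted p = 0.073). It passed as higher without that library (0.61, adjusted p = 7.76e-05) and with the offset (0.72, adjusted p = 1.46e-04).

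CTCF, the zinc-finger protein at which cohesin stops to form loop anchors, had 57.3, 60.4 and 56.6 CPM in control and 69.6, 59.1 and 65.6 CPM in knockout libraries. The groups overlapped, and the log2 fold change of 0.16 (SE 0.10) did not pass (adjusted p = 0.21). It passed as higher without knockout library 2 (0.22, adjusted p = 0.025) and with the offset (0.32, adjusted p = 0.0034), and lay at -0.01 with library totals only.

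Of 31 listed partners (separase, securin, shugoshins, alternative clamp loaders, SMC5/6 localisation factors and topoisomerase cofactors) 28 were tested. Of these, 15 fell, 3 rose and 10 did not pass, beside 30.8% lower and 28.9% higher over all tested genes. The partners' median log2 fold change was -0.41. With the offset 15 fell and 6 rose, beside 28.5% lower and 31.6% higher over all genes with a matched transcript. The 4 with the smallest p were the topoisomerase II binding scaffold gene TOPBP1 (log2 fold change -1.32, SE 0.16), the topoisomerase I binding ligase gene TOPORS (-1.15, SE 0.14), SLF2, which brings SMC5/6 to damage (-1.12, SE 0.16), and RMI1 (-1.16, SE 0.18). With the offset TOPBP1, TOPORS and RMI1 still fell (-0.57, -0.53 and -0.55), and SLF2 did not pass (-0.15, adjusted p = 0.15). By pathway, 6 of 8 topoisomerase partners fell and 0 rose, 5 of 12 cohesin partners fell and 2 rose, 2 of 5 condensin partners fell and 1 rose, and 2 of 3 SMC5/6 partners fell.

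Of 30 G2/M genes outside the set 24 fell and 1 rose (median log2 fold change -1.14), beside 30.8% lower and 28.9% higher over all tested genes. With the offset 26 fell and 2 rose (median -0.82), beside 28.5% lower and 31.6% higher over all genes with a matched transcript. The 4 with the smallest p were BUB1 (-1.96), NUSAP1 (-1.59), CCNA2 (-1.29) and BUB1B (-1.60). Of 30 S phase genes 7 fell, 5 rose and 18 did not pass (median 0.01), to be read beside the same shares. With the offset 8 fell and 6 rose, beside 28.5% lower and 31.6% higher over all genes with a matched transcript. The 4 with the smallest p were FEN1 (0.81), POLA1 (-1.26), CDT1 (0.88) and RRM1 (-0.59). The part of cell-cycle phase in the members' levels was not tested.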

How the data were processed

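RNA-seq libraries of 3 control and 3 PHF8 knockout samples of 786-O cells were compared. Per the labels' design text the authors filtered reads, mapped them to GRCh38 with HISAT2 (version 2.0.4, per the submitters' processing notes) and counted them per gene with HTSeq. Of the strand setting and the annotation release, nothing was found: not given in the sources used here. Each deposited value is the raw read count of a symbol in a library.

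The 33 members and the context lists were chosen with earlier results of these data known. Counts were filtered with filterByExpr (14398 genes), scaled by TMM (control factors 1.05 to 1.07, knockout factors 0.94 to 0.96) and tested with edgeR 4.0.16 (quasi-likelihood, group only, prior count 0.125, R 4.3.3), with Benjamini-Hochberg adjustment over all tested genes. SE is the log2 fold change over the root of F. Length and GC content come from canonical GENCODE transcripts on GRCh38, matched by symbol or RefSeq synonym for 92.4% of tested genes; lowess trends (span 0.3) in both gave the offset. Ratios were tested by exact permutation. No same-group libraries were duplicates (chi-square per degree of freedom 3.06 to 73.4). In simulated counts for these 14398 genes the recovered share was 50.8% at 1.5-fold (65 genes), 84.4% at 2-fold (64) and 100% at 4-fold (63), with 11 false among 161 calls. The simulation changed few genes and held no length or GC trend and no outlying library. Its shares and false calls therefore need not hold for the data. Named are all members, PHF8 and, per context list, the 4 called genes with the smallest p. Alternatives were DESeq2 1.42.0, limma-voom 3.58.1, other factors and filters, a replicate block, leaving out each library, a 2-fold criterion and the offset.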

Additional observations from a re-analysis of the deposited data

How the results depend on the processing

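The number of members lower in knockout cells was 23 and stayed between 21 and 24 in all alternatives except the 2-fold criterion (18) and the length and GC offset (15). With the offset 4 cohesin genes instead of 10 were lower. Among the SMC5/6 genes and SMCHD1, 1 gene (NSMCE4A) was lower instead of 3 (SMC5, SMC6 and SMCHD1). The 7 condensin and 3 topoisomerase genes stayed lower, and 6 related genes instead of 3 were higher. Called values turned in direction only with the offset, for SMC1A (0.18) and SMC6 (0.05), and of the members not called without it NSMCE4A was lower (-0.35) and ESCO1 turned from -0.48 to 0.35 without passing. The count of cohesin genes higher, 2, was 1 with library totals only, no filter, limma-voom, the replicate block and the offset, and 1 or 2 when a library was left out. For topoisomerases 1 gene was higher, 2 with no filter, and 1 or 2 when a library was left out. With the 2-fold criterion 2038 genes were lower and 1324 higher in all, 8 related genes were lower, and 0 members (cohesin 0, condensin 0, SMC5/6 0, topoisomerases 0) and 0 related genes were higher. With library totals only the median of all tested genes moved to -0.18 and 36.7% of calls were higher instead of 48.4%, and the direction of 2 uncalled members (CTCF and NSMCE4A) changed. DESeq2 and both other sets of factors changed no member's call. Same-numbered libraries did not deviate together (correlations 0.02, -0.044 and 0.011); the replicate block gave 23 members lower and 4 higher, MAU2 being the call lost. The lowest member count in any library was 88 reads (ESCO2).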
